A study of Mus musculus with 25 samples.

Results

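Hepatocytes of C57BL/6 mice fed a diet for non-alcoholic steatohepatitis (NASH) over 6 weeks were compared with hepatocytes from C57BL/6 mice on a normal diet. The comparison holds all 3 libraries labelled as week 6 of the NASH diet and all 5 libraries labelled as normal diet, which is 8 of the 25 libraries of a time course with samples from each of weeks 1 to 6. Each liver was digested by collagenase perfusion, a slow spin collected the hepatocytes, flow cytometry sorted them, and RNA of the sorted cells was sequenced from the 3′ ends of transcripts with the QuantSeq kit, which gives about 1 read per transcript molecule. No genotype or drug other than the anaesthetic was named for either group. The composition of the diet, the sex and age of the mice, the markers of the sort gate and whether each library came from its own mouse are not stated in the labels used here, so p-values reflect only how far these libraries spread.

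The liver makes cholesterol from acetyl-CoA through the mevalonate pathway, and takes up more of it from the diet when the food is rich in sterols. Sterols hold the transcription factor SREBP2, the product of Srebf2, in the endoplasmic reticulum, which lowers transcription of the synthesis enzymes, while oxidised sterols activate LXR, a nuclear receptor that raises transcription of sterol exporters. In steatohepatitis, fat-laden hepatocytes lie beside recruited macrophages, activated endothelium and matrix-producing stellate cells, and many hepatocyte products that depend on growth hormone or on nuclear receptors are known to decline.

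Library totals ran from 6174357 to 7958216 counts at week 6 and from 5281143 to 7985100 counts in normal diet. Of 37085 gene symbols, 11869 had enough counts to be tested. Levels are given as CPM, the counts of a gene over a scaled library total after correction for composition, in the order of the replicate numbers. Every adjusted p comes from edgeR's quasi-likelihood test with Benjamini-Hochberg adjustment over all 11869 genes, a gene was called below 0.05, and ± is the SD after a level and the SE after a log2 fold change.

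All 15 hepatocyte markers were detected, and their summed level was 93570 to 98530 CPM in the week-6 libraries and 121200 to 132100 CPM in the normal-diet libraries. The libraries also held transcripts of other liver cells, and more of them at week 6. The 14 Kupffer cell markers, which mark the resident macrophages of the liver, summed to 1704 to 1943 CPM at week 6 and 198.1 to 752.7 CPM in normal diet. The 24 markers of sinusoidal endothelial cells, of which 23 were tested, summed to 2209 to 2687 CPM at week 6 and 307 to 1166 CPM in normal diet. The 23 stellate cell markers, of which 22 were tested, summed to 747.5 to 1156 CPM at week 6 and 134.3 to 312.1 CPM in normal diet. The mean log2 CPM over these 3 lists, used as a marker score, was 5.50, 5.16 and 5.40 at week 6 and 2.70, 3.34, 3.61, 3.99 and 2.32 in normal diet, so the groups did not overlap, and normal-diet replicates 1 and 5 were the lowest. Of 4 tested cholangiocyte markers 2 were called higher. All 12 cholangiocyte markers, tested or not, had overlapping summed levels of 50.07 to 59.63 CPM at week 6 and 44.92 to 68.9 CPM in normal diet. Of 3 tested neutrophil markers 1 was called higher. All 12 neutrophil markers, tested or not, had summed levels of 3.736 to 9.704 CPM at week 6 and 0.7252 to 3.096 CPM in normal diet, which did not overlap. Among 3 tested lymphocyte markers, 1 was called higher and 1 lower. Summed levels of all 17 lymphocyte markers, tested or not, were 41.38 to 50.43 CPM at week 6. They were 7.67 to 20.06 CPM in normal diet, without overlap. The cholangiocyte markers Krt7, Krt19 and Epcam were too low to be tested, and the neutrophil markers Ly6g and Mpo and the erythroid marker Slc4a1 had no count in either group. Other erythroid markers were detected, and none of the 5 tested was called. Erythroid markers summed to 17.96 to 26.17 CPM at week 6 and 4.17 to 52.01 CPM in normal diet, with overlap.

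Week 6 differed from normal diet in 3175 genes, which is 26.8% of the genes tested. Of these, 1929 were higher, or 16.3% of all tested genes, and 1246 were lower, or 10.5%. The change reached 2-fold for 1713 called genes, of which 1550 were higher and 163 lower, so that the rises were mostly large and the falls mostly small. Libraries of both groups did not overlap for 3161 genes, 26.6% of those tested, and 2608 of the called genes were among them. In bulk libraries such as these, fewer cells of a type and less RNA per cell cannot be told apart. The direction of small changes depended on the scaling: with library size as the only scaling, the median of all genes moved up by 0.30 on the log2 scale and the called genes split into 3260 higher and 231 lower. Falls of less than about that size are therefore changes relative to the other genes of the same library. With the marker score as a term in the model, 10 genes were called. Of these 2, Adam11 and Slc17a8, were higher and 8 were lower, among them Aldoc, Apom, Ces2a, Mvd, Nudt7, Slco2a1 and Sqle. The SE grew by a median factor of 1.74 in that fit. The score did not overlap between the groups, so that fit cannot tell apart diet and marker level.

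**Figure D1:**
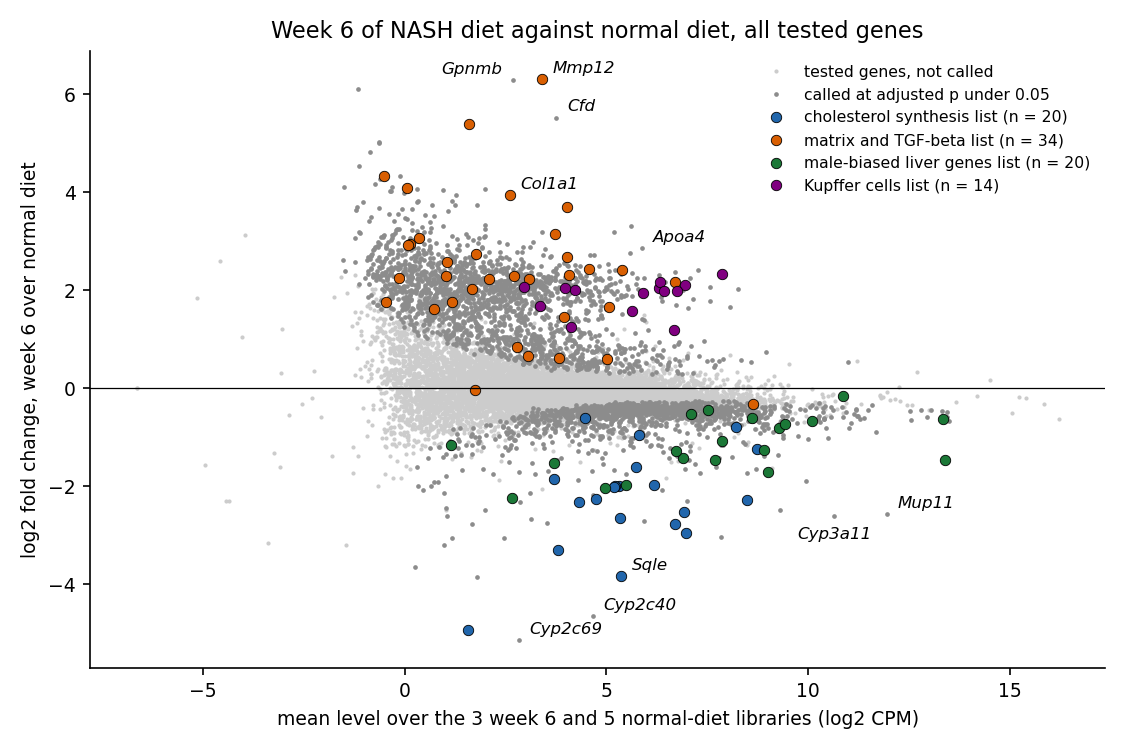
Log2 fold change of week 6 over normal diet (vertical axis) against the mean log2 CPM (horizontal axis) for each of the 11869 genes tested, with 4 gene lists in colour. The 20 cholesterol synthesis genes lie below 0, and the 14 Kupffer cell markers and most of the 34 matrix and TGF-beta genes lie above it.

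Cholesterol synthesis was the most uniform fall. All 20 enzymes from acetyl-CoA to cholesterol were called lower at week 6, against 10.5% of all genes, with a median log2 fold change of -2.13 where the median of all tested genes was -0.05. The promoters of this pathway are known to bind SREBP2 together with the factor NF-Y, which reads the letters CCAAT. Because these members moved together, the 250 bases before the start of 3 of them are shown in mouse build GRCm38.p6 from RefSeq, on the strand of the gene, with CCAAT or its reverse ATTGG and the letters TCACNCCAC of the sterol regulatory element in capitals.
Hmgcs1 promoter, chr13:119690101-119690350, plus strand: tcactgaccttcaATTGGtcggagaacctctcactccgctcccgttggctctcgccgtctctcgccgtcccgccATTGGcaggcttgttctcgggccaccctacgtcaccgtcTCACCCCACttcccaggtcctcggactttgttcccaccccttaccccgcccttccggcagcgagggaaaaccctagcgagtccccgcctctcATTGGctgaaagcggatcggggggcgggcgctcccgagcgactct
Msmo1 promoter, chr8:64733579-64733828, minus strand: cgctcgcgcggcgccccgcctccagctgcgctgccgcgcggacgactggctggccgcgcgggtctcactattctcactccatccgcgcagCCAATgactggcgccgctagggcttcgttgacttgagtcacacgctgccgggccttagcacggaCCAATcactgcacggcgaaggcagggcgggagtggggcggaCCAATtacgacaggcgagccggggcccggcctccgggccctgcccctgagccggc
Nsdhl promoter, chrX:72918271-72918520, plus strand: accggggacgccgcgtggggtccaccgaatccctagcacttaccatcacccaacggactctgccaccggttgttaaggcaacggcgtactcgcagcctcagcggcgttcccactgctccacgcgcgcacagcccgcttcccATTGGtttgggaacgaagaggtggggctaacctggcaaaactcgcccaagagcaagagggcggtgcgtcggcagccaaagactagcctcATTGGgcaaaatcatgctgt
In Hmgcs1 the sterol regulatory element letters began 137 bases before the start and CCAAT, read on the opposite strand, began 237, 176 and 45 bases before it. In Msmo1 CCAAT began 160, 96 and 55 bases before the start, and in Nsdhl it was read on the opposite strand 109 and 20 bases before it. Promoter windows from 250 bases before to 50 bases after the start matched 15 of the 20 genes, with 18 windows in all. CCAAT, on either strand, was in 14 of the 18 windows (77.8%), against 37.4% of all 32851 windows of the same length. TCACNCCAC was in 1 of the 18 windows (5.56%), that of Hmgcs1, against 1.24% of all windows. These are matches of letters and not measured binding.

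The pathway's first committed steps fell by different amounts. Hmgcs1, which joins acetyl-CoA units into HMG-CoA, had 70.8, 123 and 123 CPM at week 6, against 631, 466, 197, 510 and 750 CPM in normal diet. Every week-6 library was below every normal-diet library, of which replicate 3 was the lowest, and the log2 fold change was -2.28 ± 0.35 (edgeR adjusted p = 0.000105). Mvd, which makes the first isoprenoid unit, had 1.42, 2.87 and 2.21 CPM at week 6, against 23.8, 25.7, 14.2, 21.3 and 19.9 CPM in normal diet, a 9.78-fold lower level (edgeR adjusted p = 2.52e-06). The kinases that act before it, Mvk and Pmvk, had log2 fold changes of -1.85 ± 0.35 and -1.99 ± 0.28, also without overlap between the groups. Idi1, the isomerase of the isoprenoid unit, was near the limit of detection, with 3 counts over the week-6 libraries and 131 counts over the normal-diet libraries, a ratio of 0.0297 with a 95% exact interval of 0.00605 to 0.0887 that covers counting error only.

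The enzymes that follow also fell in every week-6 library. Fdps, which makes farnesyl diphosphate, had 15.1, 27.3 and 25.1 CPM at week 6, against 194, 151, 83.0, 142 and 198 CPM in normal diet, a 6.84-fold lower level (edgeR adjusted p = 2.67e-06). Sqle, the epoxidase that commits squalene to sterols, had 3.82, 5.60 and 3.97 CPM at week 6, against 57.7, 63.3, 54.8, 70.3 and 69.9 CPM in normal diet. Its log2 fold change was -3.83 ± 0.25, or 14.2-fold lower, and its adjusted p was the smallest of the comparison (edgeR adjusted p = 4.6e-10). Msmo1, a sterol methyl oxidase, had 24.1, 25.7 and 22.1 CPM at week 6, against 220, 204, 72.9, 199 and 230 CPM in normal diet. The lowest normal-diet library was again replicate 3, and still lay above all 3 week-6 libraries (log2 fold change -2.95 ± 0.32, edgeR adjusted p = 4.6e-06). Cyp51 and Nsdhl, which remove methyl groups from lanosterol, had log2 fold changes of -2.52 ± 0.29 and -2.66 ± 0.29.

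Falls were also seen at the end of the pathway, where Dhcr7 fell about as much as the early kinases Mvk and Pmvk. Dhcr7, which reduces the immediate precursor of cholesterol, averaged 25.6 ± 5.49 CPM at week 6 and 99.8 ± 20.1 CPM in normal diet (SD, n = 3 and 5), a log2 fold change of -1.96 ± 0.22. Sc5d, a desaturase of the same steps, had 195, 208 and 296 CPM at week 6, against 660, 401, 455, 452 and 766 CPM in normal diet, which do not overlap (log2 fold change -1.23 ± 0.21). The list kept 19 of 20 members called lower with library size as the only scaling (median -1.83), and 3 of 20, Mvd and Sqle among them, with the marker score as a term (median -1.72).

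**Figure D2:**
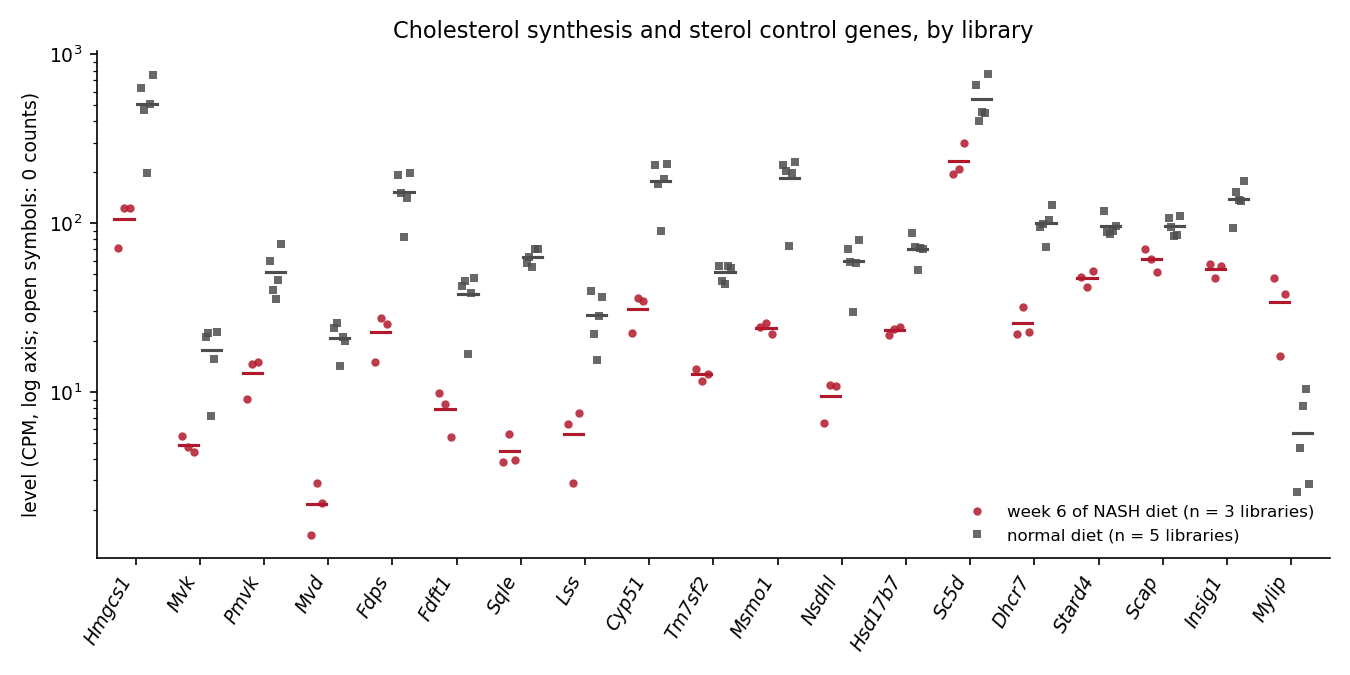
CPM on a log axis of 15 genes of cholesterol synthesis and of Stard4, Scap, Insig1 and Mylip, in each of the 3 week-6 libraries (left of each pair) and the 5 normal-diet libraries (right), with lines at the means. Sqle stands at 3.82 to 5.60 CPM at week 6, below all 5 normal-diet libraries at 54.8 to 70.3 CPM, and Mylip lies higher at week 6.

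Genes that sense sterols followed in part. Of 8 tested genes of sterol sensing and uptake, 5 were lower and 1 was higher. Insig1, the anchor that holds SREBP2 back and is itself a target of it, had 57.2, 47.1 and 56.0 CPM at week 6, against 94.1, 152, 138, 135 and 178 CPM in normal diet (log2 fold change -1.38 ± 0.29, edgeR adjusted p = 0.00138). It was lower in every week-6 library than in any normal-diet library. Stard4, a sterol carrier, and Scap, the escort of SREBP2, fell by 1.02 and 0.65 on the log2 scale without overlap, and Srebf2 itself fell by 0.76 with overlapping libraries. The member that rose was Mylip, a ubiquitin ligase that LXR induces, with 47.4, 16.2 and 38.2 CPM at week 6 and 2.54, 4.66, 8.25, 10.4 and 2.85 CPM in normal diet (log2 fold change 2.52 ± 0.42, edgeR adjusted p = 0.000223). Srebf2 was not called without week-6 replicate 1 or 2 or normal-diet replicate 1 or 5 (edgeR adjusted p = 0.075 to 0.127).

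Among 13 tested LXR targets and partners, 7 were higher and none was lower, with a median of 0.71. Without normal-diet replicate 3, 8 were higher and the median was 1.35. Abcg8, which with Abcg5 exports sterols into bile, had 96.2, 99.3 and 104 CPM at week 6, against 30.5, 24.3, 64.6, 24.9 and 46.0 CPM in normal diet (log2 fold change 1.39 ± 0.27, edgeR adjusted p = 0.000562). Abcg5 had 95.1, 80.2 and 113 CPM at week 6, against 21.9, 18.8, 86.3, 22.2 and 31.8 CPM in normal diet (log2 fold change 1.40 ± 0.36, edgeR adjusted p = 0.00651). In normal diet replicate 3 was the highest for both exporters, and for Abcg5 it overlapped the week-6 libraries. Abcg1, a cholesterol exporter of macrophages, Lpl, the lipase of lipoprotein triglyceride, and Arl4c, a small GTPase, rose by 2.77 ± 0.44, 1.85 ± 0.30 and 2.78 ± 0.43 on the log2 scale. Macrophages express these 3 genes too, and the macrophage markers given above rose in the same libraries; their part in these rises was not tested. The LXR targets of fat synthesis did not pass the test. Srebf1 had 231, 55.2 and 163 CPM at week 6 and 34.3, 62.8, 267, 45.6 and 92.7 CPM in normal diet (edgeR adjusted p = 0.531), and Scd1 had 5090, 8478 and 9180 CPM at week 6 and 4606, 3640, 13260, 5324 and 3469 CPM in normal diet (edgeR adjusted p = 0.555). Normal-diet replicate 3 was the highest of its group for both genes. The log2 fold change of Abcg5 was 2.03 without normal-diet replicate 3. Abcg5 was not called when only both groups were modelled or without normal-diet replicates 1 and 5 (edgeR adjusted p = 0.0581 and 0.053).

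Fatty acid synthesis changed in 3 of 17 tested genes, all lower, where 10.5% of all genes were lower. The median of the list was -0.64. Without normal-diet replicate 3, 3 genes of the list were lower and 1 was higher, with a median of -0.15. Acss2, which makes acetyl-CoA from acetate, had 25.4, 34.9 and 50.6 CPM at week 6, against 184, 160, 142, 151 and 275 CPM in normal diet (log2 fold change -2.30 ± 0.30, edgeR adjusted p = 2.8e-05). Acacb, the acetyl-CoA carboxylase at mitochondria, had 9.71, 24.3 and 20.9 CPM at week 6, against 58.2, 56.4, 80.8, 57.0 and 52.6 CPM in normal diet (log2 fold change -1.75 ± 0.36, edgeR adjusted p = 0.00123). Neither gene's groups overlapped, and the citrate carrier Slc25a1 fell by 0.64 on the log2 scale. Fasn, the fatty acid synthase, had 170, 447 and 225 CPM at week 6, against 265, 321, 1332, 247 and 345 CPM in normal diet, and Thrsp, a lipogenic regulator, had 174, 311 and 232 CPM at week 6, against 296, 504, 2054, 317 and 508 CPM in normal diet. Neither passed the test (edgeR adjusted p = 0.351 for Fasn and edgeR adjusted p = 0.0616 for Thrsp), and for both the spread of normal diet was set by replicate 3, the highest library. Slc25a1 was not called without week-6 replicate 1 or 3 (edgeR adjusted p = 0.0646 to 0.078).

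Of 19 tested genes of fat uptake and storage, 4 were higher and none was lower, a share near the 16.3% of all genes, and their median was -0.19. Cd36, a fatty acid transporter that hepatocytes, macrophages and endothelium can all express, had 65.2, 49.0 and 88.5 CPM at week 6, against 10.5, 8.97, 12.9, 17.2 and 14.2 CPM in normal diet. It was 5.26-fold higher (log2 fold change 2.40 ± 0.22, edgeR adjusted p = 4.53e-07), and every week-6 library stood above every normal-diet library. Cidec, which enlarges lipid droplets, had 4.47, 4.60 and 4.26 CPM at week 6, against 0.363, 2.07, 1.56, 0.538 and 0 CPM in normal diet (log2 fold change 2.23 ± 0.52, edgeR adjusted p = 0.00215). Plin4, a droplet coat protein, and Fabp4, the fatty acid binding protein of fat cells, macrophages and endothelium, rose by 2.24 ± 0.60 and 2.49 ± 0.48. Plin2, the droplet coat protein most used as a marker of steatosis, had 365, 539 and 495 CPM at week 6 and 587, 350, 462, 573 and 296 CPM in normal diet, with overlapping libraries (edgeR adjusted p = 0.911). Plin4 was not called without week-6 replicate 2 (edgeR adjusted p = 0.0908), with a log2 fold change of 1.53.

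In fatty acid oxidation, 1 of 24 tested genes was higher and 2 were lower, where 16.3% of all genes were higher and 10.5% lower. The median of -0.06 changed sign to 0.24 with library size as the only scaling. The higher gene was Vnn1, a pantetheinase and a PPAR-alpha target (log2 fold change 1.07 ± 0.27), and one of the lower genes was the coactivator Ppargc1a, with 10.4, 10.3 and 10.1 CPM at week 6 and 12.2, 18.6, 19.3, 18.3 and 30.0 CPM in normal diet (edgeR adjusted p = 0.0075). Cpt1a, the gate of mitochondrial fatty acid entry, had a log2 fold change of 0.12 ± 0.17 and did not pass the test (edgeR adjusted p = 0.655).

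The apolipoproteins moved both ways. Of 19 tested genes of lipoprotein export, 2 were higher and 4 were lower, where 16.3% of all genes were higher and 10.5% lower. Apoa4, an apolipoprotein of chylomicrons and HDL that rises in fatty liver of mice, had 125, 127 and 132 CPM at week 6, against 9.43, 17.9, 39.1, 7.40 and 14.5 CPM in normal diet. It was 7.22-fold higher and the 3 week-6 libraries were close to each other (edgeR adjusted p = 8.47e-05). Apoc2, the cofactor of lipoprotein lipase, had 645, 742 and 613 CPM at week 6, against 368, 382, 533, 350 and 365 CPM in normal diet (log2 fold change 0.74 ± 0.15, edgeR adjusted p = 0.000894). Apom, the carrier of sphingosine phosphate on HDL, had 192, 235 and 162 CPM at week 6, against 398, 462, 420, 408 and 397 CPM in normal diet (log2 fold change -1.09 ± 0.12, edgeR adjusted p = 2.67e-06). Apom thus fell in the same libraries in which Apoa4 and Apoc2 rose. Apoa1 and Apoa2, the main proteins of HDL, and Mttp, which loads lipid onto Apob, fell by 0.46, 0.45 and 0.52 on the log2 scale. Apoe had a log2 fold change of 0.18 ± 0.12 and Apob of -0.50 ± 0.27, and neither passed the test. Apoa1 was not called without week-6 replicate 3 (edgeR adjusted p = 0.0902), nor Mttp without week-6 replicate 1 (edgeR adjusted p = 0.0891). On library size alone, 5 genes of the list were higher and 1 was lower, and 2 were lower when only both groups were modelled or without normal-diet replicates 1 and 5.

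Bile acid synthesis and transport was lower in 10 of 24 tested genes and higher in 1. The main classical enzyme Cyp7a1 had 45.8, 51.3 and 29.0 CPM at week 6 and 68.3, 69.7, 34.7, 33.4 and 29.6 CPM in normal diet and did not pass the test (edgeR adjusted p = 0.83), while the alternative pathway fell. Cyp27a1, which starts that pathway in mitochondria, had 136, 132 and 133 CPM at week 6, against 364, 301, 210, 285 and 340 CPM in normal diet (log2 fold change -1.17 ± 0.19, edgeR adjusted p = 0.000103). Cyp7b1, which follows it, had 103, 123 and 66.8 CPM at week 6, against 295, 416, 266, 235 and 142 CPM in normal diet (log2 fold change -1.47 ± 0.31, edgeR adjusted p = 0.00143). Both enzymes were below normal diet in all 3 week-6 libraries. The uptake carrier Slc10a1 and the canalicular export pump Abcb11 fell by 0.71 and 0.77, and the basolateral exporter Abcc4 rose by 1.56 on the log2 scale (edgeR adjusted p = 0.006). With library size as the only scaling, 3 genes of this list were lower and 3 were higher. Abcc4 was not called without normal-diet replicates 1 and 5 (edgeR adjusted p = 0.0514).

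Of 35 tested genes of xenobiotic metabolism, 17 were lower and none was higher, with a median of -0.58. Cyp3a11, the most studied drug-oxidising enzyme of mouse liver, had 200, 209 and 738 CPM at week 6, against 2220, 3159, 1420, 2695 and 2212 CPM in normal diet. Week-6 replicate 3 was well above the other 2 week-6 libraries, yet below all normal-diet libraries (log2 fold change -2.61 ± 0.45, edgeR adjusted p = 0.000291). Ces2a, a carboxylesterase of drugs and lipids, had 66.0, 128 and 80.6 CPM at week 6, against 298, 351, 225, 304 and 221 CPM in normal diet (log2 fold change -1.61 ± 0.19, edgeR adjusted p = 3.94e-06). Cyp1a2, which oxidises caffeine and aromatic amines, had 116, 214 and 106 CPM at week 6, against 748, 547, 164, 390 and 564 CPM in normal diet, and the lowest normal-diet library overlapped week 6 (edgeR adjusted p = 0.00742). Cyp3a, Cyp2c, Ces and Ugt2b genes have near-identical copies, so reads may be split between them. The count of lower genes was 9 without normal-diet replicates 1 and 5, 10 when only both groups were modelled, and 6, with 1 higher, with library size as the only scaling. Without week-6 replicate 3 the log2 fold change of Cyp3a11 was -3.52.

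Genes of male-biased expression in mouse liver, many of which depend on pulses of growth hormone, were lower in 13 of 20 tested cases, and none was higher (median -1.20). Serpina1e, an alpha-1-antitrypsin copy, had 4924, 6112 and 4344 CPM at week 6, against 13490, 16360, 16160, 12970 and 11460 CPM in normal diet (log2 fold change -1.46 ± 0.25, edgeR adjusted p = 0.000202). Cyp4a12a, a fatty acid hydroxylase, had 184, 341 and 244 CPM at week 6, against 624, 852, 561, 655 and 355 CPM in normal diet (log2 fold change -1.25 ± 0.23, edgeR adjusted p = 0.000403). The steroid enzyme Hsd3b5 and the selenium-binding protein Selenbp2 also fell without overlap, with log2 fold changes of -1.42 and -1.71. Promoter windows were matched for 13 of the 20 genes, and the letters TTCNNNGAA, which STAT factors read, were in 1 of 14 windows (7.14%, Moxd1), against 8.3% of all windows on either strand. Of 6 tested female-biased genes, 2 were lower and 1, the transcription factor gene Cux2, was higher (log2 fold change 2.54 ± 0.70, edgeR adjusted p = 0.00786). The lower ones were Cyp2c40, a cytochrome P450 that hydroxylates arachidonate, with 2.51, 1.58 and 0.441 CPM at week 6 and 104, 14.8, 5.76, 42.5 and 33.3 CPM in normal diet, and its near copy Cyp2c69, with 0.545, 0.144 and 0.147 CPM at week 6 and 25.6, 5.52, 2.02, 14.7 and 8.11 CPM in normal diet. Their log2 fold changes were -4.64 ± 0.97 and -5.13 ± 1.19 (edgeR adjusted p = 0.00149 and 0.00325), the largest falls among called genes with at least 10 CPM in the higher group and no overlap, with SEs near or above 1 and a wide spread of the normal-diet libraries. With library size as the only scaling, 8 of the 20 male-biased genes were lower. Without week-6 replicate 1 those of Cyp2c40 and Cyp2c69 were -5.28 and -6.11, and without normal-diet replicate 1 that of Cyp2c40 was -3.92. Cux2 was not called without week-6 replicate 1 (edgeR adjusted p = 0.0672).

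The major urinary proteins, pheromone carriers that male mouse liver secretes in bulk, gave several of the other large falls. Mup11 had 906, 855 and 1137 CPM at week 6, against 6157, 7912, 6383, 4029 and 4267 CPM in normal diet (log2 fold change -2.57 ± 0.48, edgeR adjusted p = 0.000589). Mup15 had 23.7, 56.6 and 47.0 CPM at week 6, against 556, 438, 305, 219 and 204 CPM in normal diet (log2 fold change -3.02 ± 0.75, edgeR adjusted p = 0.00532). Mup16 had 128, 148 and 212 CPM at week 6, against 1364, 920, 976, 559 and 732 CPM in normal diet (log2 fold change -2.48 ± 0.57, edgeR adjusted p = 0.00287). All 3 were lower in every week-6 library, and Mup17 and Mup7 also fell, with log2 fold changes of -1.89 and -1.97. Mup20 did not pass the test (log2 fold change -0.15 ± 0.37, edgeR adjusted p = 0.811). Mup genes are nearly identical in sequence, so how reads were split among them is uncertain. Mup17 was not called without week-6 replicate 1, 2 or 3 or normal-diet replicate 1 or 2 (edgeR adjusted p = 0.068 to 0.102).

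In the growth hormone axis itself, 6 of 14 tested genes were lower and 1 was higher. Igf1, the hormone that growth hormone induces in liver, had 905, 931 and 1002 CPM at week 6, against 1651, 1185, 1330, 1360 and 1460 CPM in normal diet (log2 fold change -0.56 ± 0.13, edgeR adjusted p = 0.00254). The receptor Ghr fell by 0.42 and Igfals, a carrier of IGF1, fell by 0.57. Igfbp1 had 52.9, 87.7 and 56.8 CPM at week 6, against 108, 101, 278, 425 and 176 CPM in normal diet (log2 fold change -1.73 ± 0.61, edgeR adjusted p = 0.0427). Igfbp3, a binding protein made mainly by non-parenchymal cells, rose by 2.57. The count of lower genes in this list was 2 without week-6 replicate 2 or 3, 3 without normal-diet replicate 5, and 0 with library size as the only scaling. Igfbp1 was not called without week-6 replicate 1, 2 or 3 or normal-diet replicate 3, 4 or 5 (edgeR adjusted p = 0.0546 to 0.14), Ghr without week-6 replicate 2 or normal-diet replicate 1 (edgeR adjusted p = 0.0659 to 0.15) or Igfals without week-6 replicate 3 (edgeR adjusted p = 0.0627).

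Amino acid metabolism was lower in many genes by moderate amounts. Of 35 tested genes of the urea cycle and amino acid catabolism, 20 were lower and none was higher (median -0.53). Cps1, which fixes ammonia, had 808, 457 and 612 CPM at week 6, against 1184, 1179, 1363, 1048 and 1595 CPM in normal diet (log2 fold change -1.03 ± 0.16, edgeR adjusted p = 8.14e-05). Otc and Ass1, the following steps of the cycle, fell by 0.62 and 1.01. Acmsd, which diverts tryptophan breakdown away from NAD, had 20.8, 24.6 and 26.0 CPM at week 6, against 46.8, 79.8, 86.1, 61.4 and 89.0 CPM in normal diet (log2 fold change -1.61 ± 0.22, edgeR adjusted p = 1.93e-05). Of these 4 genes Acmsd fell most. In methionine and one-carbon metabolism, 11 of 24 were lower and none was higher, led in size by Csad, the taurine-forming decarboxylase, with 108, 175 and 130 CPM at week 6 and 372, 543, 231, 328 and 339 CPM in normal diet (edgeR adjusted p = 0.00192). The methionine and one-carbon count was 7 without week-6 replicate 3 and 5 with library size as the only scaling, each with 1 higher. The urea and amino acid count was 12 without week-6 replicate 1 or when only both groups were modelled, 11 without normal-diet replicates 1 and 5, and 6 with library size as the only scaling. Ass1 was not called without week-6 replicate 1 or 2 (edgeR adjusted p = 0.0572 to 0.0868).

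Of 22 tested genes that mark periportal hepatocytes, 10 were lower and none was higher, and of 23 that mark pericentral hepatocytes 3 were lower and 1 was higher. Among all tested genes, 10.5% were lower and 16.3% higher. The difference between both lists was not tested. In each list 2 genes were lower with library size as the only scaling. The periportal count was 6 when only both groups were modelled or without normal-diet replicates 1 and 5, and the pericentral count was 5 without normal-diet replicate 3 and 1 without normal-diet replicates 1 and 5. Pck1, the gate of gluconeogenesis and a periportal gene, had 1335, 456 and 835 CPM at week 6, against 1429, 2415, 1730, 1559 and 1735 CPM in normal diet (log2 fold change -1.02 ± 0.27, edgeR adjusted p = 0.0078). Cdh1, the epithelial cadherin, fell by 0.83 without overlap. Glul, the glutamine synthetase of cells at the central vein, had 366, 569 and 495 CPM at week 6 and 582, 707, 300, 394 and 399 CPM in normal diet, with a log2 fold change of 0.00 ± 0.29. In glucose metabolism and insulin signalling, 4 of 24 genes were lower, where 10.5% of all genes were, and none was higher. Pck1, Igfbp1 and Ppargc1a were among those 4. Scaled by library size alone, 1 of the 24 was lower and 2 were higher, and 3 were higher without normal-diet replicate 3. Igfbp1 was not called when any of 6 single libraries was left out.

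Proteins that hepatocytes secrete were lower as a group. Of 24 secreted proteins, 17 were lower and none was higher (median -0.46), and their summed level was 118400 to 128900 CPM at week 6 and 169300 to 175300 CPM in normal diet. Ttr, the thyroid hormone carrier, and Ahsg, a calcification inhibitor, fell by 0.49 and 0.59 on the log2 scale. Alb, serum albumin, had 52050, 49920 and 51220 CPM at week 6, against 65000, 61770, 59690, 66570 and 67270 CPM in normal diet, and missed the threshold although the groups did not overlap (edgeR adjusted p = 0.0547). With library size as the only scaling, 4 of the 24 were lower. Of the hepatocyte transcription factors, 4 of 26 were lower, where 10.5% of all genes were, among them Hnf4a and Cebpa by 0.44 and 0.40, and 2 were higher, among them Gata4, with 27.3, 28.2 and 22.4 CPM at week 6 and 10.5, 9.66, 14.6, 18.3 and 7.23 CPM in normal diet (edgeR adjusted p = 0.000272). Gata4 is also a gene of endothelial and stellate cells, whose markers rose; their part in this rise was not tested. Hnf4a was not called without week-6 replicate 1 or 2 or normal-diet replicate 1 (edgeR adjusted p = 0.082 to 0.105), nor Cebpa without week-6 replicate 1 or normal-diet replicate 1 (edgeR adjusted p = 0.0512 to 0.0903). No transcription factor of the list was lower with library size as the only scaling or when only both groups were modelled, and 1 was without week-6 replicate 1 or normal-diet replicate 1. The secreted protein count was 11 when only both groups were modelled.

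Complement and coagulation factors were lower in 21 of 32 tested cases and higher in 1. C3, the central complement protein, had 1626, 2069 and 1918 CPM at week 6, against 2934, 2713, 2311, 2680 and 3871 CPM in normal diet (log2 fold change -0.63 ± 0.18, edgeR adjusted p = 0.00875). Serpinc1, antithrombin, and Plg, plasminogen, fell by 0.61 and 0.59 on the log2 scale. The member that rose was Cfd, the complement protease adipsin, which fat cells are known for, with 19.6, 69.4 and 15.7 CPM at week 6 and 0.906, 1.38, 0.934, 0.269 and 0.219 CPM in normal diet. The normal-diet values were near the floor of detection, week-6 replicate 2 was the highest library, and the log2 fold change was 5.52 ± 0.80 (edgeR adjusted p = 8.98e-05). The count of lower members was 12 without week-6 replicate 1, 13 without week-6 replicate 3, 11 when only both groups were modelled, and 3 with library size as the only scaling. C3 was not called without week-6 replicate 1 (edgeR adjusted p = 0.0638), and the log2 fold change of Cfd was 4.55 without week-6 replicate 2.

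Acute phase genes were higher in 2 of 27 tested cases and lower in 5, where 16.3% of all genes were higher and 10.5% lower. The median of the list, -0.18, was 0.12 with library size as the only scaling. Il1rn, the antagonist of the interleukin-1 receptor, had 24.6, 30.5 and 17.4 CPM at week 6, against 1.45, 2.07, 2.18, 4.98 and 1.97 CPM in normal diet (log2 fold change 3.20 ± 0.48, edgeR adjusted p = 8.84e-05). The fibrinogen chain Fgb fell by 0.60 on the log2 scale, and Saa1, the serum amyloid that rises most in acute inflammation, had 106, 161 and 122 CPM at week 6 and 108, 399, 173, 123 and 38.4 CPM in normal diet (edgeR adjusted p = 0.76). Il1rn is also a macrophage gene. Fgb was not called without week-6 replicate 1 or 3 or normal-diet replicate 4 (edgeR adjusted p = 0.0861 to 0.0997). Scaled by library size alone, 5 genes of the list were higher and 1 was lower, DESeq2 called 4 higher, and 2 were lower without week-6 replicate 1 or normal-diet replicate 4.

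Nuclear-encoded respiratory chain subunits were lower in 30 of 50 tested cases and higher in none, with a median of -0.38. Uqcrh, a hinge subunit of complex III, had 292, 331 and 301 CPM at week 6, against 442, 445, 482, 457 and 438 CPM in normal diet (log2 fold change -0.56 ± 0.10, edgeR adjusted p = 0.000162). Of the 10 mitochondrially encoded genes tested, mt-Co1 was lower by 0.33, and mitochondrial transcripts took 22.1 ± 1.56% of counts at week 6 and 23.1 ± 3.00% in normal diet (SD, n = 3 and 5). Of 76 cytosolic ribosomal protein genes, 11 were lower, where 10.5% of all genes were, and none was higher. Their median of -0.21 was 0.09 with library size as the only scaling, under which none was lower. The respiratory chain falls were of about the size of the scaling difference: 2 of 50 were lower with library size as the only scaling, 11 when only both groups were modelled, and 16 without week-6 replicate 3. The mitochondrial gene mt-Co1 was not called without week-6 replicate 1 or 3 or normal-diet replicate 3, 4 or 5 (edgeR adjusted p = 0.0857 to 0.148).

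Few genes of the stress lists were higher. Of 20 genes of endoplasmic reticulum folding and stress, 8 were lower and none was higher. Hspa5, the main chaperone of that compartment, had 944, 1085 and 830 CPM at week 6, against 1468, 2112, 1379, 2277 and 1133 CPM in normal diet (log2 fold change -0.81 ± 0.24, edgeR adjusted p = 0.0143). That count was 4 without week-6 replicate 3 or without normal-diet replicate 2 or 4, and 1 with library size as the only scaling. In the integrated stress response, Sesn2 and Ddit3 rose by 1.20 and 0.87, Asns fell by 2.00, and the stress hormone Gdf15 had 71.0, 57.3 and 93.1 CPM at week 6 and 72.7, 92.1, 67.0, 30.6 and 104 CPM in normal diet (edgeR adjusted p = 0.984). Of 23 oxidative stress and glutathione genes, 8 were lower and 2 were higher. The higher ones were the regulator Nfe2l2, by 0.54, and the haem oxygenase Hmox1, with 12.3, 12.8 and 13.2 CPM at week 6 and 4.17, 4.14, 3.12, 5.38 and 1.75 CPM in normal diet (edgeR adjusted p = 0.00163). The lower ones included catalase, Cat, and the superoxide dismutase Sod2, by 0.48 and 0.49. Hspa5 was not called without week-6 replicate 3 (edgeR adjusted p = 0.071), Ddit3 without week-6 replicate 3 or normal-diet replicate 4 (edgeR adjusted p = 0.0522 to 0.0886) or Asns without week-6 replicate 1, 2 or 3 or normal-diet replicate 2 or 5 (edgeR adjusted p = 0.0683 to 0.142). The count of lower oxidative stress genes was 3 with library size as the only scaling and 5 when only both groups were modelled.

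**Figure D3:**
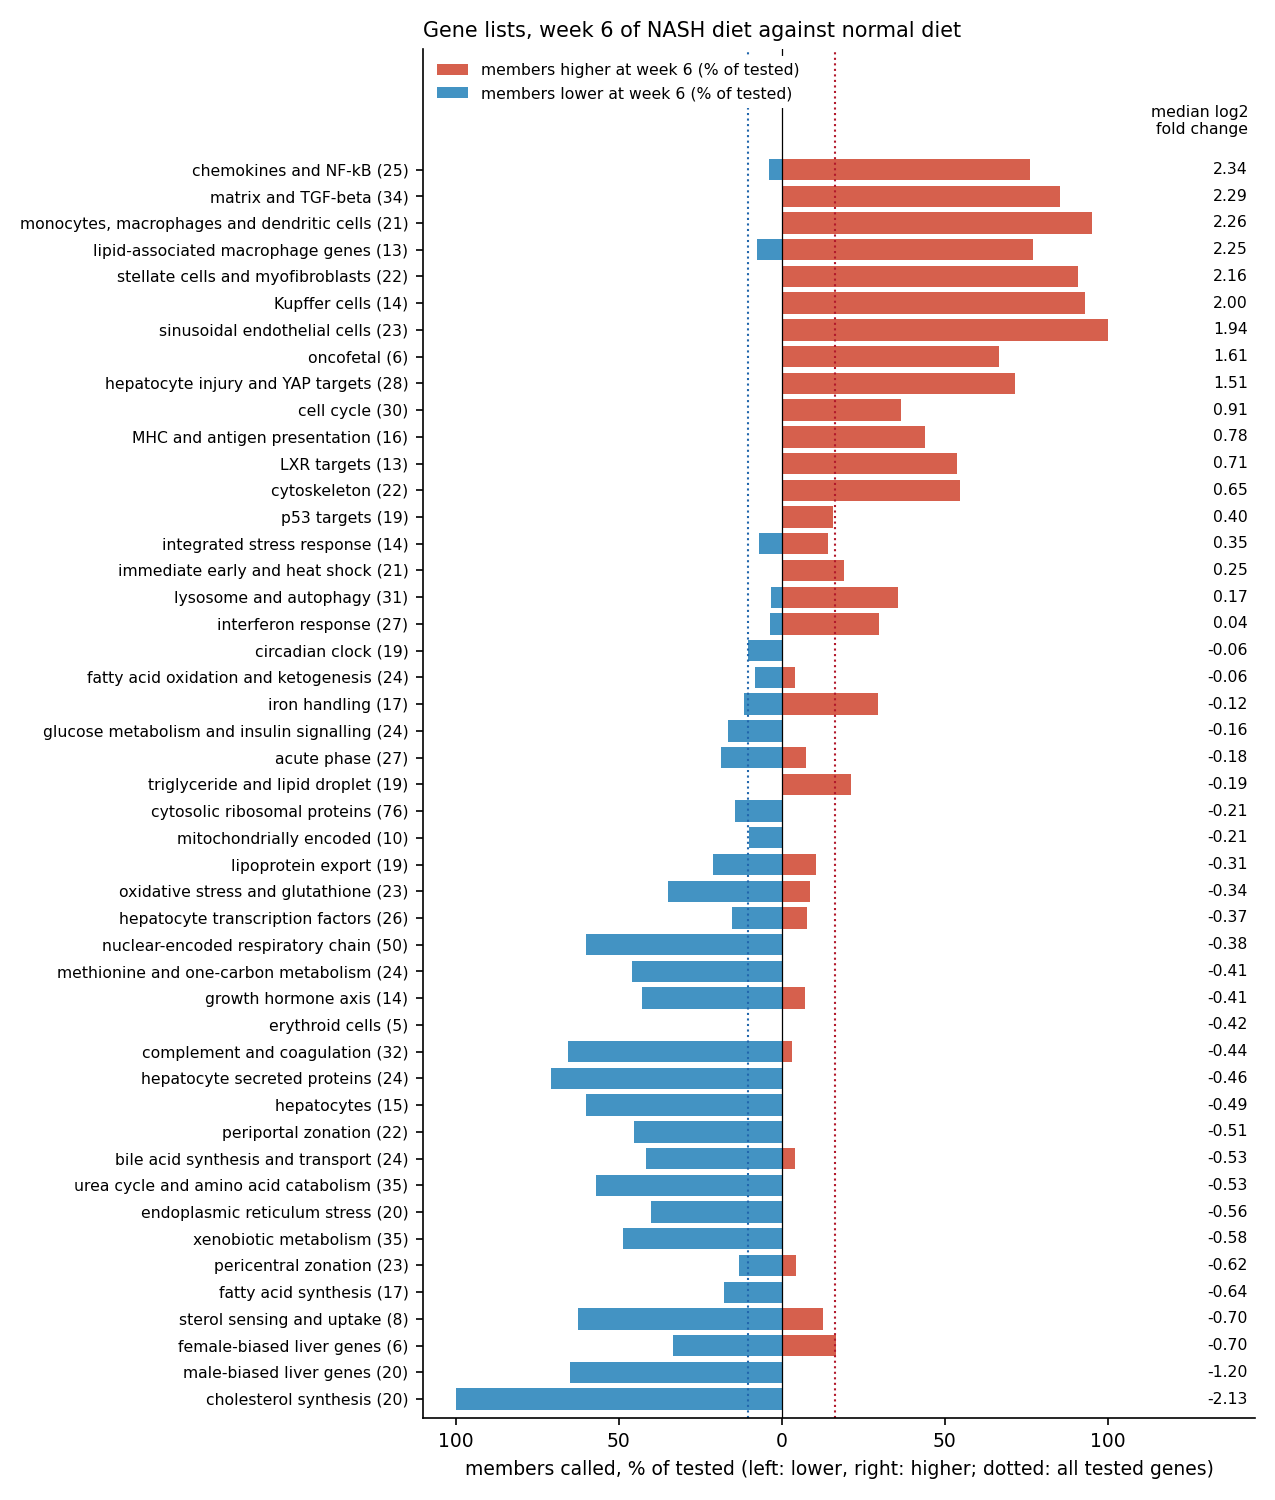
Share of the tested members of each gene list that were called higher (bars to the right) or lower (bars to the left) at week 6 over normal diet, in percent, with the median log2 fold change at the right edge. Dotted lines mark the shares of all tested genes, 16.3% higher and 10.5% lower; metabolic and secreted lists lie to the left and lists of immune, endothelial and matrix genes to the right.

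Among called genes with at least 10 CPM in the higher group and no overlap, the largest rises were those of Mmp12 and Gpnmb, followed by the adipsin gene Cfd and the collagen genes Col1a1 and Col3a1. Mmp12, the macrophage elastase, had 34.4, 21.1 and 27.9 CPM at week 6, against 0, 0.172, 0.311, 0.808 and 0.219 CPM in normal diet. It was nearly absent from normal diet, with 10 counts over 5 libraries, and rose by 6.31 ± 0.56 on the log2 scale (edgeR adjusted p = 5.46e-07). Gpnmb, a lysosomal membrane glycoprotein of lipid-laden macrophages, had 19.53, 12.07 and 18.97 CPM at week 6, against 0, 0, 0.623, 0.269 and 0 CPM in normal diet, where 3 of 5 libraries had no count (log2 fold change 6.28 ± 0.80, edgeR adjusted p = 1.93e-05). Trem2, the lipid-sensing receptor that defines such macrophages, had 7.75, 3.16 and 4.12 CPM at week 6, against 0, 0.172, 0.779, 0.673 and 0.219 CPM in normal diet (log2 fold change 3.62 ± 0.65, edgeR adjusted p = 0.000244). For each of these 3 genes every week-6 library was above every normal-diet library. Clec7a, the beta-glucan receptor of myeloid cells, had 105, 88.2 and 144 CPM at week 6, against 6.53, 12.1, 12.9, 17.5 and 5.92 CPM in normal diet (log2 fold change 3.32 ± 0.51, edgeR adjusted p = 0.000125). Lgals3, a galectin, the tetraspanin gene Cd63, the leukocyte myosin gene Myo1f and Cyth4, a GTPase exchange factor of leukocytes, rose by 3.18 ± 0.52, 2.98 ± 0.36, 2.98 ± 0.47 and 2.89 ± 0.48, and Cdh13, a cadherin without a cytoplasmic tail, by 2.94 ± 0.39. The log2 fold change of Mmp12 was 7.15 without normal-diet replicate 4, and that of Gpnmb 7.37 without normal-diet replicate 3.

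Of 13 tested genes of lipid-associated macrophages, 10 were higher and 1 was lower. The lower one was Fabp5, a fatty acid binding protein, with 11.8, 11.6 and 17.6 CPM at week 6 and 152, 54.0, 105, 88.5 and 45.4 CPM in normal diet (log2 fold change -2.71 ± 0.40, edgeR adjusted p = 8.17e-05). The Kupffer cell markers were higher in 13 of 14 cases, with log2 fold changes of 1.19 to 2.32. Clec4f, a lectin of resident Kupffer cells, had 157, 144 and 151 CPM at week 6, against 15.8, 43.8, 45.0, 63.5 and 12.7 CPM in normal diet (log2 fold change 2.04 ± 0.41, edgeR adjusted p = 0.00102). Of 21 markers of monocytes, macrophages and dendritic cells, 20 were higher, with summed levels of 897.6 to 1143 CPM at week 6 and 77.35 to 375.9 CPM in normal diet. The log2 fold changes of these 21 markers ran from 0.50 to 6.28 with a median of 2.26, and the median of the Kupffer markers was 2.00. Gpnmb, Ccr2, Cx3cr1, Trem2 and Lgals3 were among those of the 21 that lay above the whole range of the Kupffer markers. Mmp12, which is on neither list, lay above it too. Some of the 21 lay within or below that range, and the difference between the lists was not tested.

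Chemokine and NF-kB genes were higher in 19 of 25 tested cases and lower in 1 (median 2.34). Ccr2, the receptor that recruits monocytes, had 10.2, 5.89 and 13.2 CPM at week 6, against 0.544, 0.862, 0.623, 0.673 and 0 CPM in normal diet (log2 fold change 4.07 ± 0.49, edgeR adjusted p = 5.16e-06). Its ligand Ccl2 had 7.42, 3.74 and 8.38 CPM at week 6, against 0.544, 0.345, 0.156, 1.89 and 0.438 CPM in normal diet (log2 fold change 3.15 ± 0.56, edgeR adjusted p = 0.000231). Cx3cr1, the fractalkine receptor of monocytes, had 9.38, 6.90 and 8.53 CPM at week 6, against 0.181, 0.517, 0.934, 0.538 and 0.876 CPM in normal diet (log2 fold change 3.74 ± 0.43, edgeR adjusted p = 3.87e-06). Receptor and ligand genes were each low in absolute terms and separate between the groups. Cxcl2, which attracts neutrophils, and Vcam1, an adhesion molecule of endothelium and Kupffer cells, rose by 2.88 ± 0.61 and 2.72 ± 0.48. Ccl9 fell, with 41.1, 35.2 and 32.8 CPM at week 6 and 77.6, 63.1, 45.8, 74.7 and 76.0 CPM in normal diet (edgeR adjusted p = 0.00027). Without normal-diet replicate 4 the log2 fold change of Ccl2 was 4.11.

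Interferon-stimulated genes split: 8 of 27 were higher and 1 was lower, with a median of 0.04. Ifi44, Gbp2 and Ifit2 rose by 1.40, 1.83 and 2.16, and Iigp1, an immunity-related GTPase, fell to 400, 401 and 489 CPM at week 6, against 861, 1349, 376, 617 and 672 CPM in normal diet, with overlapping libraries (edgeR adjusted p = 0.0176). Isg15 had a log2 fold change of -0.11 ± 0.30 and did not pass the test. Of 16 genes of antigen presentation, 7 were higher. All of these but the class I gene H2-Q4 belong to MHC class II or its loading, such as Cd74, the invariant chain, with 135, 135 and 95.6 CPM at week 6 and 13.4, 51.4, 25.4, 28.4 and 7.89 CPM in normal diet (edgeR adjusted p = 0.00816). The class I gene H2-K1 had a log2 fold change of -0.28 ± 0.18. Class II is carried by macrophages and dendritic cells, whose markers rose in the same libraries. The count of 7 was 2 without week-6 replicate 1, 4 without week-6 replicate 2 or normal-diet replicate 1 or 3, and 2, with 2 lower, without normal-diet replicates 1 and 5. Iigp1 was not called without week-6 replicate 1 or 2 (edgeR adjusted p = 0.0624 to 0.072), nor H2-Q4 without week-6 replicate 1 (edgeR adjusted p = 0.237).

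**Figure D4:**
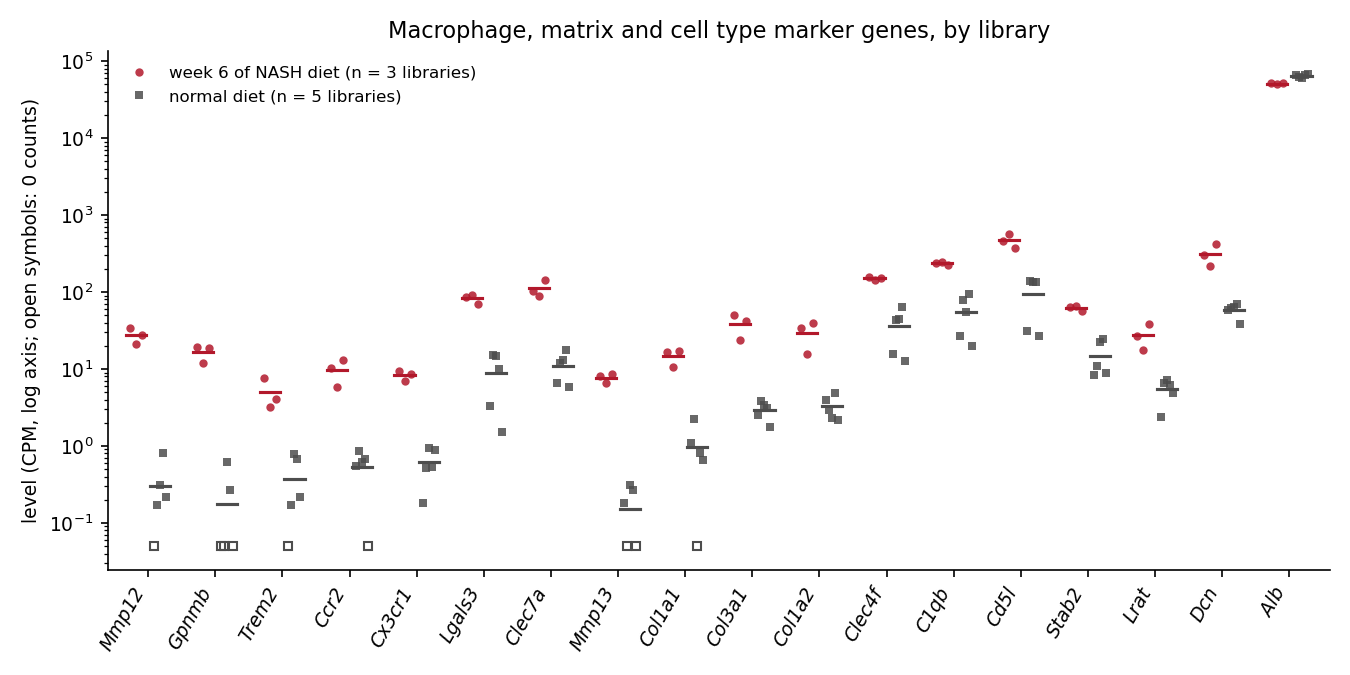
CPM on a log axis of macrophage, matrix, Kupffer, endothelial and stellate genes and of Alb in each of the 3 week-6 libraries (left of each pair) and the 5 normal-diet libraries (right), with open symbols for libraries with 0 counts, drawn at 0.05. Mmp12 stands at 21.1 to 34.4 CPM at week 6 and at 0 to 0.808 CPM in normal diet, and Alb lies at 49920 to 67270 CPM over all 8 libraries.

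Matrix and TGF-beta genes were higher in 29 of 34 tested cases and lower in none, with a median of 2.28. Col1a1, the main fibrillar collagen chain, had 16.6, 10.5 and 17.1 CPM at week 6, against 1.09, 2.24, 0, 0.808 and 0.657 CPM in normal diet. The groups did not overlap, and the log2 fold change was 3.94 ± 0.69 (edgeR adjusted p = 0.000316). Col3a1, another fibrillar chain, had 49.6, 24.1 and 42.0 CPM at week 6, against 2.54, 3.79, 3.43, 3.10 and 1.75 CPM in normal diet (log2 fold change 3.70 ± 0.56, edgeR adjusted p = 0.000115), and Col1a2 rose by 3.15 ± 0.60. Week-6 replicate 2 was the lowest of its group for all 3 collagen chains. Mmp13, a collagenase, had 8.07, 6.61 and 8.53 CPM at week 6, against 0.181, 0, 0.311, 0.269 and 0 CPM in normal diet (log2 fold change 5.40 ± 0.73, edgeR adjusted p = 1.97e-05). The protease inhibitor Timp3, the proteoglycan Bgn and the cytokine Tgfb1 rose by 2.58 ± 0.37, 2.42 ± 0.34 and 1.76 ± 0.41. Fn1, a matrix protein that hepatocytes make in bulk for plasma, did not pass the test (log2 fold change -0.33 ± 0.13). The basement membrane chains Col4a1 and Col4a2 rose by 1.67 and 1.45.

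Markers of both quiescent and activated stellate cells were higher. Of 22 tested markers, 20 were higher, with a median of 2.16. Lrat, which stores retinol in quiescent stellate cells, had 27.1, 17.8 and 38.4 CPM at week 6, against 2.36, 6.55, 7.16, 6.19 and 4.82 CPM in normal diet (log2 fold change 2.34 ± 0.36, edgeR adjusted p = 0.00011). Dcn, a proteoglycan of fibroblasts, had 301, 220 and 420 CPM at week 6, against 58.9, 61.9, 64.6, 69.2 and 38.1 CPM in normal diet (log2 fold change 2.42 ± 0.45, edgeR adjusted p = 0.000614). Acta2, the smooth muscle actin of myofibroblasts, was near 1 CPM, with 0.873, 1.01 and 1.47 CPM at week 6 and 0, 0.172, 0.467, 0.135 and 0 CPM in normal diet (edgeR adjusted p = 0.016). All 23 tested markers of sinusoidal endothelium rose, with a median of 1.94. Stab2, a scavenger receptor, had 63.6, 65.4 and 56.8 CPM at week 6, against 8.34, 10.9, 22.3, 24.2 and 8.98 CPM in normal diet (log2 fold change 2.03 ± 0.30, edgeR adjusted p = 7.98e-05), and the Wnt ligand Wnt2 and the R-spondin Rspo3, which endothelial cells supply around the central vein, rose by 2.51 ± 0.34 and 2.26 ± 0.27. The part of the summed marker levels in the rises of matrix, chemokine and macrophage genes was not tested. With the marker score as a term none of these lists had a called gene. That fit cannot tell apart diet and marker level, because the score did not overlap between the groups. Col1a1, Col1a2 and Col3a1 also belong both to the score and to the matrix list. Acta2 was not called without week-6 replicate 3 (edgeR adjusted p = 0.0613), and its log2 fold change was 3.45 without normal-diet replicate 3.

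Hepatocyte injury and YAP target genes were higher in 20 of 28 tested cases (median 1.51). Anxa2, a membrane-binding annexin, had 21.3, 27.0 and 29.1 CPM at week 6, against 4.35, 6.04, 4.05, 6.33 and 3.29 CPM in normal diet (log2 fold change 2.40 ± 0.25, edgeR adjusted p = 1.88e-06). S100a11, a calcium-binding protein, had 25.1, 28.6 and 25.1 CPM at week 6, against 3.08, 5.86, 7.32, 7.27 and 3.07 CPM in normal diet (log2 fold change 2.27 ± 0.30, edgeR adjusted p = 1.93e-05). Wwtr1, the YAP partner TAZ, had 30.8, 23.6 and 34.0 CPM at week 6, against 16.0, 11.4, 12.6, 14.7 and 16.6 CPM in normal diet, and Yap1 itself had a log2 fold change of -0.16 ± 0.15. The ductular genes Sox9 and Krt8 had log2 fold changes of -0.26 ± 0.28 and -0.11 ± 0.21 and did not pass the test, while Spp1, osteopontin, rose by 1.48 ± 0.35. Annexins, Vim and Lgals3 on this list are also expressed by macrophages, endothelium and stellate cells. In the cytoskeleton list 12 of 22 genes were higher, among them Actb, with 2393, 2814 and 2319 CPM at week 6 and 1651, 1869, 1901, 1571 and 1681 CPM in normal diet (edgeR adjusted p = 0.000824), and the filamin gene Flna, by 2.29 ± 0.36. Of 6 oncofetal genes 4 were higher, among them Ly6d, a surface marker of progenitors, with 7.31, 9.05 and 10.9 CPM at week 6 and 0.363, 0.862, 1.25, 0.673 and 1.31 CPM in normal diet (edgeR adjusted p = 3.43e-05); Afp, the fetal albumin homologue, had a log2 fold change of -0.18 ± 0.40. Of the oncofetal genes 2 were higher without normal-diet replicates 1 and 5.

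Lysosomal genes rose in 11 of 31 tested cases and fell in 1. The proteases Ctsd and Ctsb, abundant in normal diet too, had 399, 463 and 362 CPM and 524, 452 and 448 CPM at week 6, against 237, 299, 307, 286 and 243 CPM and 304, 340, 366, 330 and 300 CPM in normal diet. Both were higher in every week-6 library (log2 fold changes 0.57 ± 0.12 and 0.53 ± 0.12, edgeR adjusted p = 0.00116 and 0.00156). Of 30 cell cycle genes 11 were higher and none was lower. Ccnd2, a D-type cyclin, had 57.5, 56.2 and 44.4 CPM at week 6, against 7.07, 11.9, 16.8, 21.3 and 8.33 CPM in normal diet (log2 fold change 1.99 ± 0.31, edgeR adjusted p = 0.000125), and Mki67, the proliferation marker, had 4.91, 7.76 and 8.97 CPM at week 6, against 1.27, 6.04, 0.623, 3.90 and 0.219 CPM in normal diet, with overlapping libraries (edgeR adjusted p = 0.0247). That count was 5 without normal-diet replicate 1, 6 without week-6 replicate 2, 7 without week-6 replicate 3 or normal-diet replicate 3, and 18 with library size as the only scaling. The p53 target Cdkn1a did not pass the test (log2 fold change 0.75 ± 0.61, edgeR adjusted p = 0.404). Of 19 p53 targets 3 were higher, a share near the 16.3% of all genes, and none was without week-6 replicate 3. Mki67 was not called without week-6 replicate 2 or 3 or normal-diet replicate 1 or 3 (edgeR adjusted p = 0.0557 to 0.097), and its log2 fold change was 2.13 without normal-diet replicate 2.

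A few named genes belong to none of these lists. Aldoc, the aldolase isoform of brain, had 1.96, 3.02 and 2.65 CPM at week 6, against 18.49, 15.52, 11.99, 18.71 and 20.6 CPM in normal diet (log2 fold change -2.75 ± 0.29, edgeR adjusted p = 1.76e-06). Slc13a2, a carrier of citrate and succinate, had 1.96, 3.45 and 0.588 CPM at week 6, against 9.25, 15.9, 11.5, 13.6 and 14.2 CPM in normal diet (log2 fold change -2.68 ± 0.39, edgeR adjusted p = 3.53e-05). Both fell in all 3 week-6 libraries. Adam11, a disintegrin-like protein known from brain, had 15.6, 13.5 and 14.0 CPM at week 6, against 1.99, 1.21, 4.21, 2.29 and 4.60 CPM in normal diet, and was 5.08-fold higher (edgeR adjusted p = 5.61e-06). Slc17a8, a vesicular glutamate transporter, had 20.9, 19.4 and 15.4 CPM at week 6, against 6.53, 5.00, 6.54, 6.06 and 5.70 CPM in normal diet (log2 fold change 1.64 ± 0.23, edgeR adjusted p = 3.24e-05). Nudt7, a peroxisomal hydrolase of coenzyme A, and Slco2a1, a prostaglandin carrier, fell by 1.37 and 1.04 on the log2 scale. Adam11, Slc17a8, Nudt7 and Slco2a1 were chosen after their values were seen, because they were also called with the marker score as a term.

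Week 6 was then set against the weeks before it. Between week 6 and week 5 no gene was called, 0.0% of 11869 tested, by edgeR, DESeq2 or limma voom; 366 genes had an unadjusted p under 0.05 in edgeR, 369 in DESeq2 and 524 in limma voom. Libraries of both weeks did not overlap for 1199 genes, 10.1% of those tested. With 3 libraries in each week the smallest edgeR adjusted p was 0.993, which does not show that both weeks were alike. Against week 1, week 6 differed in 1956 genes, 16.5% of those tested, with 1363 higher (11.5%) and 593 lower (5.0%). Libraries of weeks 6 and 1 did not overlap for 2924 genes, 24.6% of those tested. With library size as the only scaling, the split was 1790 higher and 185 lower.

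None of the 20 cholesterol synthesis genes was called between weeks 6 and 1, with a median log2 fold change of -0.22. Mean Sqle levels over weeks 1 to 6 were 3.51, 5.46, 5.54, 4.79, 3.36 and 4.46 CPM, against 63.2 CPM in normal diet, so the level of every week was below that of normal diet. Mean Msmo1 levels over weeks 1 to 6 were 32.0, 33.6, 39.6, 29.5, 25.1 and 24.0 CPM, against 185 CPM in normal diet. The major urinary protein Mup11 took another course. It averaged 8384, 3689, 5166, 1319, 1129 and 966 CPM over weeks 1 to 6, against 5750 CPM in normal diet, and was lower at week 6 than at week 1 (log2 fold change -3.12 ± 0.51, edgeR adjusted p = 0.000934). Of the 20 male-biased genes, 14 were lower at week 6 than at week 1 and none was higher. The 23 pericentral genes, of which 3 were lower than in normal diet, were lower than at week 1 in 16 cases. Glul averaged 1048, 656, 606, 692, 631 and 476 CPM over weeks 1 to 6, against 476 CPM in normal diet, with the highest mean at week 1, so its fall from that week (log2 fold change -1.14 ± 0.31, edgeR adjusted p = 0.0162) brought it to the level of normal diet. That fall was not called without week-6 replicate 1 (edgeR adjusted p = 0.0864).

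The steepest changes between week 1 and week 6 were again in Mup and Cyp2c genes and in macrophage and matrix genes. Cyp2c69, Cyp2c40, Ces4a, Mup15, Mup17 and Mup16 had log2 fold changes of -5.83, -5.22, -4.67, -4.04, -3.71 and -3.22 between week 6 and week 1, and the smallest of these falls had edgeR adjusted p = 0.00195. Mmp12 averaged 0.406, 1.19, 1.16, 8.08, 29.7 and 27.8 CPM over weeks 1 to 6, against 0.302 CPM in normal diet, and was higher at week 6 than at week 1 by 6.04 ± 0.58 (edgeR adjusted p = 7.35e-06). Its largest step in CPM lay between weeks 4 and 5. Gpnmb averaged 0.362, 1.25, 0.774, 2.79, 14.0 and 16.9 CPM over weeks 1 to 6, and rose by 5.45 ± 0.77 between weeks 1 and 6. Cfd, Col1a1, Cyp26b1, which degrades retinoic acid, and Myo1f rose by 3.27 ± 0.69, 2.81 ± 0.66, 2.49 ± 0.69 and 2.42 ± 0.47 over the same span. Matrix genes were higher at week 6 than at week 1 in 24 of 34 cases and lower in 1, Fn1. Markers of sinusoidal endothelium were higher in 21 of 23, of stellate cells in 17 of 22 and of Kupffer cells in 6 of 14, and the mean marker score was 5.35 ± 0.175 for week 6 (SD, n = 3), against 5.61 ± 0.174 for week 5 (SD, n = 3) and 3.76 ± 0.497 for week 1 (SD, n = 4); its part in these differences was not tested. Cyp26b1 was not called without week-6 replicate 2 (edgeR adjusted p = 0.0534), nor Fn1 without week-6 replicate 2 or week-1 replicate 4 (edgeR adjusted p = 0.0652 to 0.099). Without week-6 replicate 2 the log2 fold change of Cfd over week 1 was 2.29, without replicate 3 that of Ces4a was -5.32, and without replicate 1 those of Cyp2c40 and Cyp2c69 were -5.84 and -6.80.

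**Figure D5:**
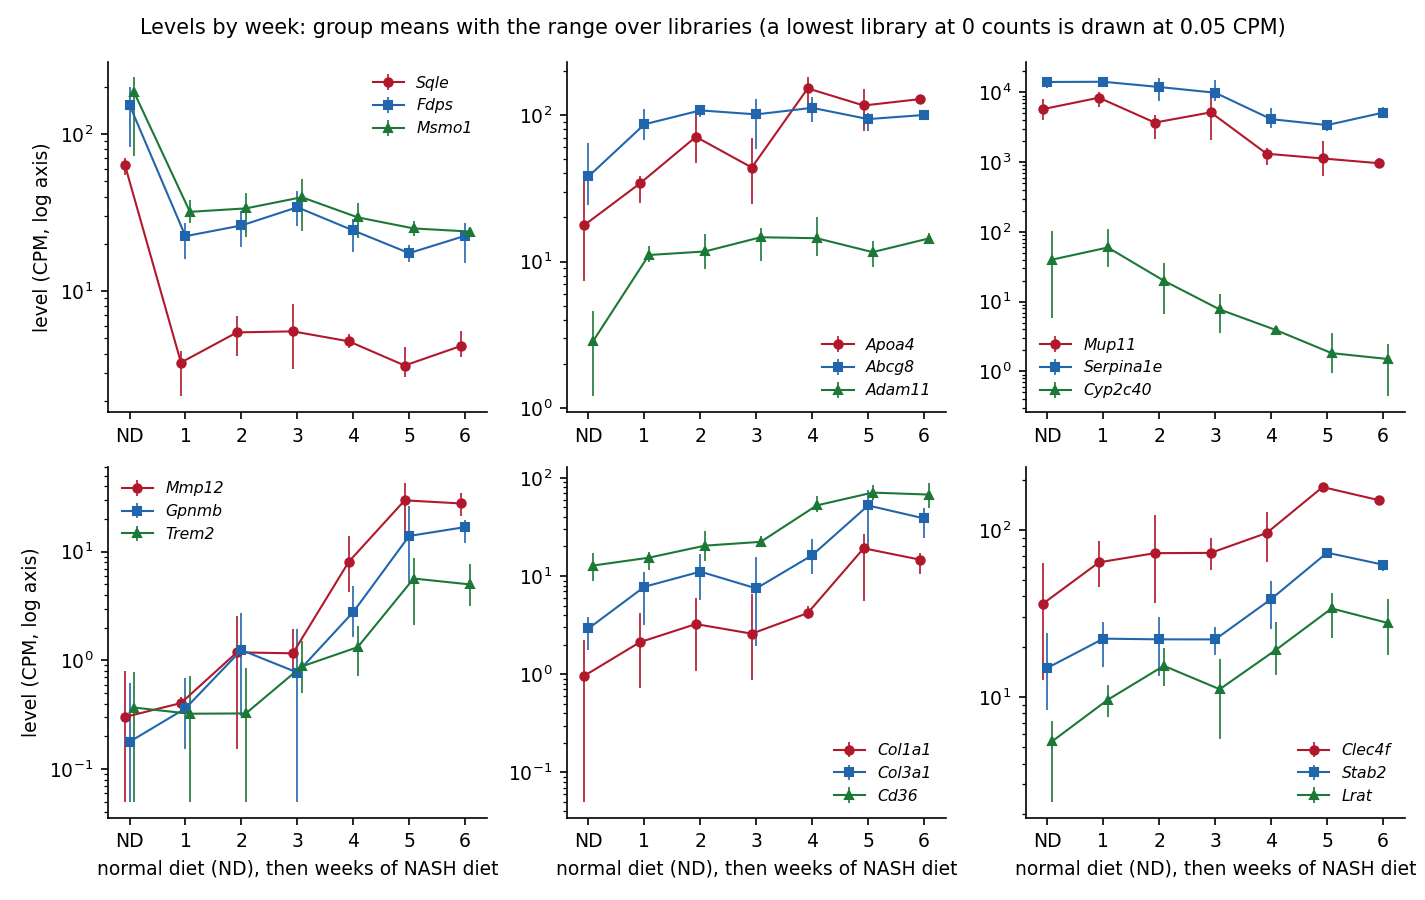
Mean CPM (log axis) in normal diet and in weeks 1 to 6 of the NASH diet for 18 genes in 6 panels, with bars for the range over libraries (n = 5, 4, 3, 4, 3, 3 and 3). Sqle, Fdps and Msmo1 are low from week 1 on, whereas Mmp12 averages 0.406 CPM at week 1 and 27.8 CPM at week 6.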

How the data were processed

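The deposited table held whole-number counts per gene symbol for 25 libraries, with no gene lengths. Per the submitters' processing notes, the authors used FastQC, cutadapt, STAR 2.7.1a and the GRCm39 build; the program that counted reads, its annotation and its use of strand were not given in the sources used here. Columns were matched to libraries by diet week and replicate number. Within each group of the main comparison, no 2 libraries agreed within sampling noise (chi-square per degree of freedom 14.1 or more), so each counted as 1 replicate. Libraries of the other diet weeks were not checked in this way and were also counted as 1 replicate each. Totals ran from 5281143 to 10015751 counts, which sets a floor of 3 counts for detection, and intervals and floors cover counting error only.

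From these counts, edgeR 4.0.16 in R 4.3.3 was used to fit 1 robust quasi-likelihood model of all 7 diet and week groups after TMM scaling and filterByExpr. A prior count of 2 entered the log2 CPM levels only, and fold changes used edgeR's default prior count. Adjusted p is by Benjamini-Hochberg over the 11869 genes tested, called below 0.05. CPM values divide by the TMM-scaled library size. The model was tested on simulated counts with 200 changed genes before use. A gene measured from its 3′ end gives no length-free comparison between genes, so levels are compared only within a gene.

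Named genes were the 15 largest rises and falls among called genes without overlap and with at least 10 CPM in the higher group, the 6 largest of each among genes at 200 CPM or more in normal diet, and the 6 largest of each between weeks, leaving out unnamed gene models. The comparison, its gene lists and this rule were chosen with earlier results of these data known. Members of lists were given as examples, described by counts and medians with no test of the list; a few members are counted but not reported here. Promoters came from RefSeq, build GRCm38.p6.

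Alternatives were DESeq2 1.42.0, its size factors, library size only, no filter, at least 5 CPM in 3 libraries, limma 3.58.1 with voom, both compared groups alone, the replicate number as a block, the marker score as a term, normal diet without replicates 1 and 5, and each library left out in turn.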

Additional observations from a re-analysis of the deposited data

Results flagged for a closer look

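In normal diet, 1 of the 5 libraries stood far from the other 4 for 15 of 252 values examined, that is, its gap to the nearest library took over 0.71 of the range of the group. Chance sets about 1 in 20 groups apart in this way. Replicate 3 of normal diet was the library apart in 10 of these values, most of them fat and sterol genes. Its gap took 0.91 of the range for Fasn, at 1332 CPM against 247 to 345 CPM in the other 4, and 0.88 for Thrsp, at 2054 CPM against 296 to 508 CPM. The gap was 0.811 for Scd1 (13260 CPM against 3469 to 5324 CPM), 0.749 for Srebf1 (267 CPM against 34.3 to 92.7 CPM) and 0.801 for Acacb (80.8 CPM against 52.6 to 58.2 CPM). It was 0.808 for Abcg5 (86.3 CPM against 18.8 to 31.8 CPM) and 0.82 for Apoc2 (533 CPM against 350 to 382 CPM). The same library was low for Msmo1, with a gap of 0.805 (72.9 CPM against 199 to 230 CPM), and for Hamp, with a gap of 0.796 (325 CPM against 679 to 769 CPM). The mean level of the fatty acid synthesis list had a gap of 0.863, at 8.15 log2 CPM in replicate 3 against 6.85 to 7.03 log2 CPM in the others.

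Normal-diet replicate 4 stood apart for Ahsg (gap 0.793, 14490 CPM against 12240 to 12710 CPM), for Il1rn (gap 0.793, 4.98 CPM against 1.45 to 2.18 CPM) and for Ccl2 (gap 0.775, 1.89 CPM against 0.156 to 0.544 CPM). Replicate 5 stood apart for Ass1 (gap 0.759, 1295 CPM against 639 to 797 CPM). Replicate 1 had the lowest mean level of the sterol sensing list (gap 0.803, 5.74 log2 CPM against 5.94 to 5.99 log2 CPM).

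The 12 genes named between weeks 6 and 1 were picked as the largest called changes of that comparison, so their differences are given as a description. Week 6 minus week 1 on the log2 scale was 6.04 for Mmp12, 5.45 for Gpnmb, 3.27 for Cfd, 2.81 for Col1a1, 2.49 for Cyp26b1 and 2.42 for Myo1f. It was -5.83 for Cyp2c69, -5.22 for Cyp2c40, -4.67 for Ces4a, -4.04 for Mup15, -3.71 for Mup17 and -3.22 for Mup16.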

How the results depend on the processing

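The count of genes called between week 6 and normal diet, 3175 with all libraries, was 3216 by DESeq2 (3067 shared), 3073 with DESeq2's size factors, 3288 by limma voom, 3048 with no filter and 2410 of 9350 genes with at least 5 CPM in 3 libraries. It moved most with the marker score as a term, to 10, with 2 higher and 8 lower. Modelled alone, both groups gave 2094 called genes, with 1504 higher and 590 lower. Library size as the only scaling gave 3260 higher and 231 lower. Leaving out each library in turn gave 2439 (week-6 replicate 1) to 3199 called genes (normal-diet replicate 4), with 1570 to 1946 higher and 869 to 1253 lower, and leaving out normal-diet replicates 1 and 5 gave 2263 (2156 shared). Between weeks 6 and 1, 1956 genes were called, and 0 with the marker score as a term (0 higher, 0 lower). Library size alone left 185 lower and both groups alone left 325 lower. Leaving out 1 library gave 1227 (week-6 replicate 1) to 1993 called, with 882 to 1403 higher and 335 to 590 lower; it was 1279 without week-1 replicate 2 and 1231 without week-1 replicate 4. Between weeks 6 and 5 no edgeR, DESeq2 or limma voom setting called a gene, and leaving out 1 library gave 0 to 0. The replicate numbers did not pair the samples: deviations of same-numbered libraries of week 6 and normal diet correlated at -0.18, 0.06 and -0.02. With the number as a block, 2683 genes were called against normal diet (1658 higher, 1025 lower) and 1838 against week 1. Of the 158 called genes that the text names, DESeq2 kept all 158, size factors 156, voom 155, no filter 154, the block 153, library size alone 129 and the marker score 9; both groups alone kept 139 of 155, normal diet without replicates 1 and 5 kept 136 of 157, and leaving out 1 library kept 138 (week-6 replicate 1) to 156. Both groups alone ended the calls of Abcg5, Apoa1, Apoa2, Ass1, Cat, Cebpa, Cyp26b1, Ghr, Hnf4a, Iigp1, Mki67, Mttp, Nfil3, Pck1, Srebf2 and mt-Co1 (edgeR adjusted p = 0.0505 to 0.185). Without normal-diet replicates 1 and 5 the calls of Abcc4, Abcg5, Acta2, Apoa1, Apoa2, Asns, Ass1, C3, Cd74, Cebpa, Cux2, Cyp1a2, Cyp26b1, Ddit3, Ghr, Hnf4a, Mki67, Mup17, Rora, Srebf2 and mt-Co1 ended (edgeR adjusted p = 0.0514 to 0.278). With the marker score, 15 of the 158 changed sign, none of them called: the log2 fold change was -0.79 for Abcc4, 0.02 for Apoa2, 0 for C3, -0.54 for Cd74, -0.26 for Clec4f, -0.31 for Col4a1, -0.03 for Col4a2, -0.02 for Ctsb, -0.29 for Cux2, -0.23 for Cxcl2, 0.02 for Ghr, -0.21 for Igfbp3, -0.15 for Klf2, 0.13 for Srebf2 and -0.48 for Vim. The cause was not tested. Genes under about 1 CPM rest on few counts at 5281143 to 7985100 counts per library, and their fold changes depend on edgeR's default prior count.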

Other observations

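Iron handling was called in both directions, with 5 of 17 tested genes higher and 2 lower at week 6 than in normal diet. Among all tested genes, 16.3% were higher and 10.5% lower. Slc40a1, the iron exporter ferroportin, had 175, 115 and 183 CPM at week 6, against 54.8, 68.5, 71.6, 79.8 and 69.7 CPM in normal diet (log2 fold change 1.19 ± 0.18, edgeR adjusted p = 5.09e-05). It is also one of the Kupffer cell markers, and had the smallest log2 fold change of the 14. Tfrc, the transferrin receptor, had 9.27, 12.5 and 9.56 CPM at week 6, against 15.6, 27.4, 35.0, 14.9 and 17.1 CPM in normal diet (log2 fold change -1.08 ± 0.31, edgeR adjusted p = 0.0127). Id1, Smad6 and Smad7, targets of the BMP signal that sets hepcidin, rose by 1.61 ± 0.34, 1.49 ± 0.28 and 1.10 ± 0.31 on the log2 scale, and Bmp2, a BMP ligand of endothelium, rose by 2.02 ± 0.35. Hamp, hepcidin itself, had 910, 670 and 1116 CPM at week 6, against 679, 709, 325, 769 and 693 CPM in normal diet, and did not pass the test (edgeR adjusted p = 0.186), whereas it was higher at week 6 than at week 1 (log2 fold change 1.35 ± 0.29, edgeR adjusted p = 0.00371). Endothelial cells express Id1 and Smad6, and the endothelial markers rose in the same libraries; their part in these rises was not tested. Tfrc was not called without week-6 replicate 1 or 3 (edgeR adjusted p = 0.0515 to 0.0611), nor Smad7 without week-6 replicate 1 (edgeR adjusted p = 0.0902). Without week-6 replicate 1, 3 genes of the list were higher and none was lower, and with library size as the only scaling none was lower.

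Among immediate early genes, 4 of 21 were higher, a share near the 16.3% of all genes, and none was lower. Klf2, a flow-responsive factor of endothelium, had 74.8, 38.6 and 60.1 CPM at week 6, against 5.26, 10.9, 19.1, 27.9 and 8.98 CPM in normal diet (log2 fold change 1.98 ± 0.41, edgeR adjusted p = 0.00145). Klf4 rose by 2.21 ± 0.44, while Fos, Jun and Egr1, which tissue dissociation can raise, had log2 fold changes of 0.55 ± 0.48, 0.20 ± 0.25 and -0.46 ± 0.41 and did not pass the test. Of 19 circadian clock genes 2 were lower, a share near the 10.5% of all genes, and none was higher. The lower ones were the receptor Rora, by 0.55, and the repressor Nfil3, by 0.78 on the log2 scale. No clock gene was lower without week-6 replicate 1 or with library size as the only scaling, under which the median of -0.06 was 0.23. Rora was not called without week-6 replicate 1 (edgeR adjusted p = 0.103), nor Nfil3 without week-6 replicate 1 or 3 or normal-diet replicate 4 (edgeR adjusted p = 0.0631 to 0.109).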
